A study of Rattus norvegicus with 23 samples.

Results

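The 81 rows described here are better-measured nuclear transcripts of a small RNA sequencing table from rat sperm. They come from 68 genes. A row is 1 Ensembl transcript, and the rows were chosen by their level: the scaled read signal had to average at least 50 over the 23 rats. The 22 mitochondrial rows were left out, as were 9 rows of 8 nuclear genes named in the rule (Stat2, Olr1568, Pcdhga7, Srsf4, Pcdh7, Synpo2, Ccr1l1 and Tgfbr1). Stat2 averaged 16630, above each of the 81 rows. Together the 9 left-out rows held 22.64% of the table's signal (mean of 23 rats), so the 81 are not the strongest nuclear signal. Of the 617 rows of the table, 586 remained after those exclusions, and 81 of these reached the mean of 50. Just inside that limit were Samd9 at 52.29, a Zbed4 transcript at 51.44 and a Nat8 transcript at 50.49; just outside it were Treml2 at 49.39, Kif17 at 49.38 and Srp72 at 48.87. Because the rule used the level, the order of the levels is a description, and a high level supports nothing by itself.

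The sperm came from the cauda epididymis, the storage end of the duct, of male Long-Evans rats that had breathed filtered air (7 rats), 0.4 ppm ozone (8 rats) or 0.8 ppm ozone (8 rats). The design text names 8 rats for each group, and the labels used here give 7 air libraries. Rats were placed in the chambers for 4 h at a time, on 3 occasions in week 1 and on 2 in week 2, at measured means of 0.401 ppm and 0.798 ppm for the ozone groups. The question put by the study was whether ozone, an oxidant gas, changes the RNA carried by sperm. The rats' ages are not given in the labels. Every library is from a separate rat, and no rat has a repeat library. The spread between rats given below therefore joins differences between animals with those of sperm collection, library preparation and sequencing. These cannot be told apart.

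Sperm reach the epididymis with a condensed nucleus in which transcription has largely ceased. The RNA they hold is mainly made of remnants of spermatogenesis, much of it cleaved, and of small RNA gained in the epididymis from vesicles shed by its epithelium. A small RNA library captures short molecules, so a read assigned to an mRNA here is a short fragment or an unrelated short RNA of matching sequence, and not evidence of an intact message. The position of the reads within each transcript is not given in the files, nor is the strand that was counted. Overlapping and antisense genes therefore cannot be told apart.

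The values are not divided by transcript length, so they rank rows by the reads they received and not genes by expression. A read was worth between 0.5579 and 1.508 units of signal, depending on the library, which gave 83119 to 228011 reads over the whole table (median 168877). Mean reads in the table were 170885 ± 37713 in air, 150387 ± 38803 at 0.4 ppm and 177422 ± 40480 at 0.8 ppm (SD, n = 7, 8 and 8). At that depth the 81 rows averaged 53.8 to 4410 reads per library, with a median of 137. The rows held 26.79% ± 5.23 of the table's signal in air, 27.07% ± 5.47 at 0.4 ppm and 25.2% ± 3.79 at 0.8 ppm (SD, n = 7, 8 and 8). Mitochondrial rows held 49.87% ± 9.6, 42.34% ± 10.5 and 50.09% ± 14.8 in air, 0.4 ppm and 0.8 ppm rats. They were lowest, at 23.7% in 0.4 ppm rat 6 and 15.6% in 0.8 ppm rat 5.

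The label of mature sperm could not be checked against mRNA markers. None of 25 listed spermatid and sperm marker genes, protamines and transition proteins among them, has a row in the table. Nor does any of the 12 leukocyte or 10 erythrocyte markers. Of 26 markers of the epididymal epithelium, Lcn5 alone has a row, and it is among the 81. Lcn5 encodes an epididymal lipocalin that binds retinoic acid. Its signal ran from 67.2 through a median of 72.5 to 135 in air, from 40.5 through 84.4 to 128 at 0.4 ppm, and from 38.5 through 75.2 to 157 at 0.8 ppm. The groups overlapped, and both ozone groups held rats below every air rat. In such bulk RNA, fewer cells of a type and less RNA per cell cannot be told apart. Of 11 muscle and stroma markers, Col1a1 and Lum have 5 rows, none of them among the 81, with means of 2.158 to 17.33.

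Signal was concentrated in few rows. The 12 rows of the highest mean held 69.1% of the signal of all 81, 10 rows averaged 1000 or more, 38 lay between 100 and 1000, and 33 between 50 and 100. Every one of the 81 was above 0 in every library. The median over rats was under 50 for 8 of them, and 8 were under 10 in at least 1 library.

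The largest single source within the 81 rows was ENSRNOG00000061304, a gene listed by Ensembl number only. Its 4 transcripts averaged 4070, 2656, 2447 and 2003, together 28.1% of the signal of the 81 rows. Its leading transcript ran from 2739 through a median of 4431 to 5146 in air, from 1654 through 4008 to 5943 at 0.4 ppm, and from 2084 through 4298 to 6052 at 0.8 ppm. Another gene known by number only, ENSRNOG00000069312, averaged 2535 and was among the steadiest rows, from 2303 to 3167 in air, 1762 to 2547 at 0.4 ppm and 1761 to 3743 at 0.8 ppm. ENSRNOG00000065796 averaged 1629. In all, 16 genes with 19 of the 81 rows carry an Ensembl number and no symbol, and 51 genes with 61 rows matched a RefSeq gene, every one of them protein coding.

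Trim17 led the named genes with a mean of 3688. It encodes a RING-type ubiquitin ligase of the tripartite motif family, first described in rat as a testis RING finger protein. Its signal ran from 2541 through a median of 3149 to 4025 in air, from 2312 through 3902 to 5844 at 0.4 ppm, and from 1956 through 3763 to 5595 at 0.8 ppm. Both ozone groups covered the range of the air rats and reached beyond it at each end. Gimap7, an immunity-associated GTPase of lymphocytes, averaged 2601, with 1700, 2116 and 2919 as the lowest, median and highest signal in air, 1649, 2948 and 4364 at 0.4 ppm, and 1463, 2726 and 4516 at 0.8 ppm. Zbtb18, a zinc finger repressor known from neuronal differentiation, had 3 rows with means of 2447, 187 and 163.5. Gfpt2, an enzyme that opens the hexosamine pathway, had 2 rows with means of 1682 and 196.3. Srpk1, the kinase that phosphorylates SR splicing factors and also protamine 1, had 3 rows with means of 886.5, 633.6 and 183.8. Smo, the transducer of the Hedgehog signal, averaged 833.8, with 267, 755 and 1056 in air, 299, 640 and 1174 at 0.4 ppm, and 289, 1079 and 1893 at 0.8 ppm.

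**Figure D1:**
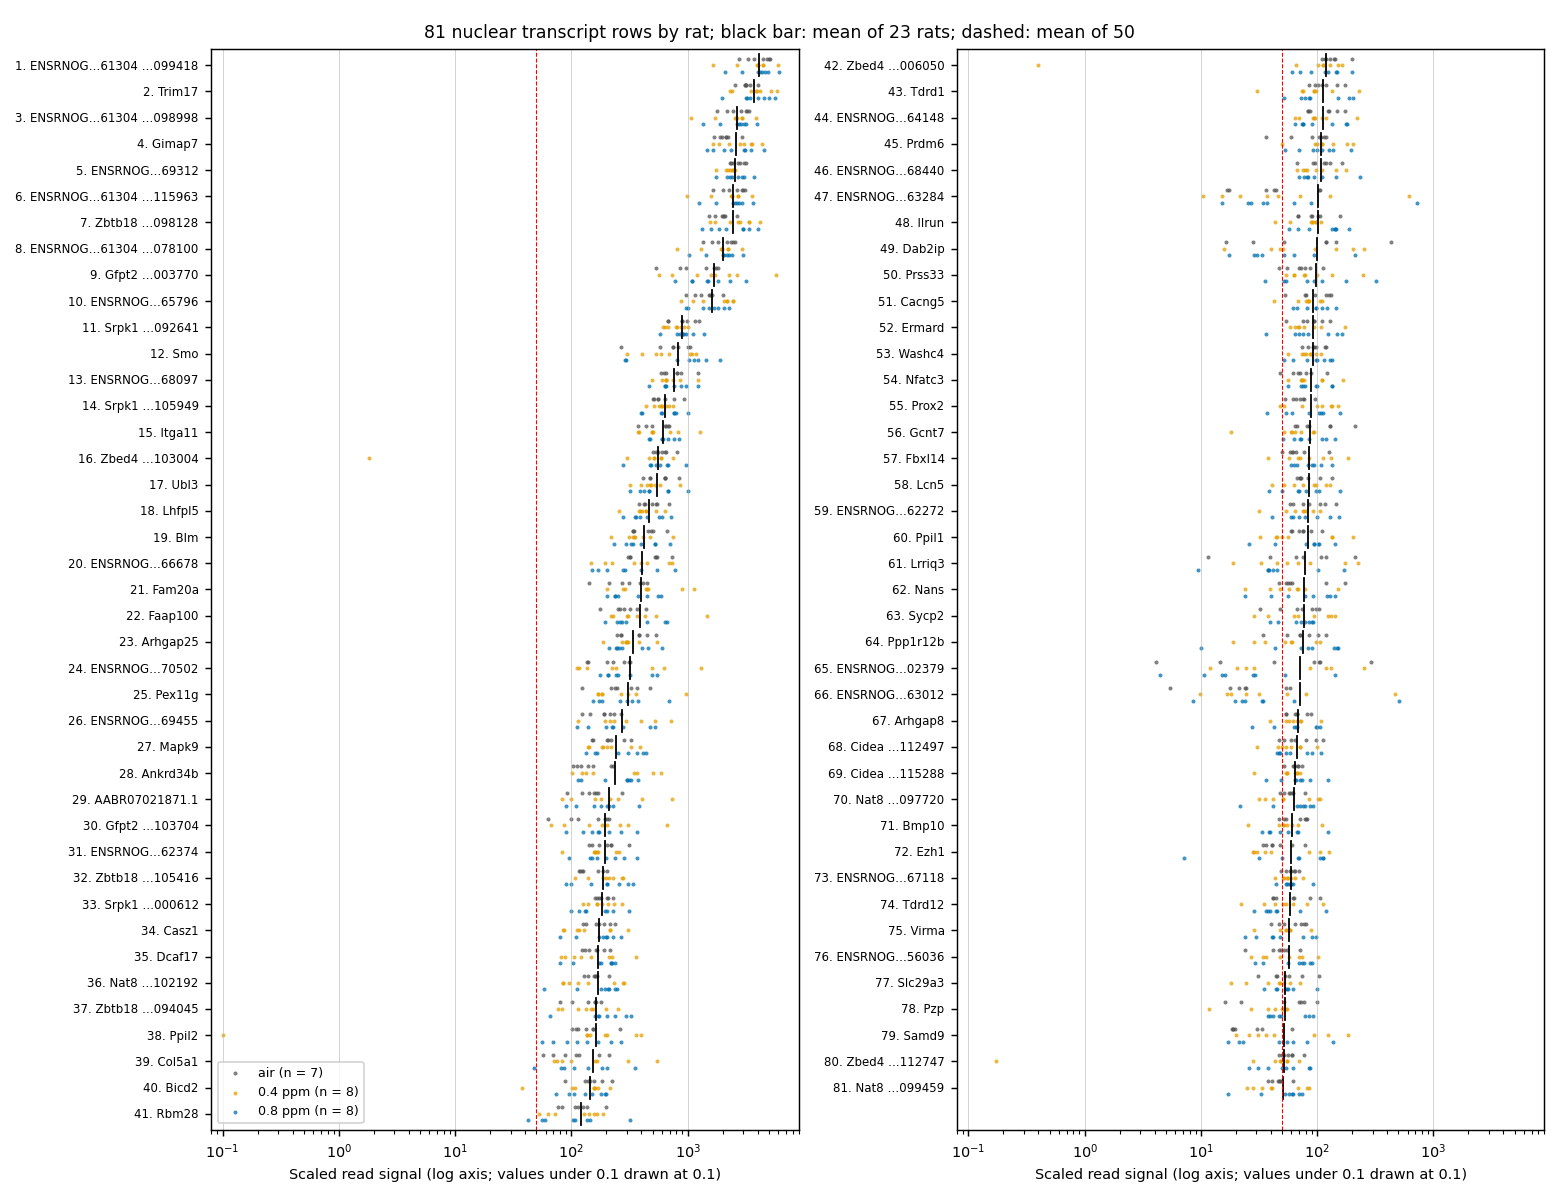
Scaled read signal (log axis) of the 81 rows in each of 23 rats, ordered by mean, with air rats in grey, 0.4 ppm rats in orange and 0.8 ppm rats in blue; the black bar is the mean of 23 rats and the dashed line the mean of 50 that chose the rows. The groups overlap in each of the 81 rows, and single rats stand far from the rest for Zbed4, Ppil2, ENSRNOG00000063284 and ENSRNOG00000063012.

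Genes with known work in germ cells were present at moderate signal. They were picked out after their values had been seen. Blm, a RecQ helicase of homologous recombination, averaged 447 ± 120 in air, 401 ± 158 at 0.4 ppm and 416 ± 154 at 0.8 ppm (SD, n = 7, 8 and 8). Dcaf17, an adaptor of a CUL4 ubiquitin ligase needed for sperm formation in mice, averaged 162 ± 33.1, 166 ± 93.4 and 179 ± 58.7 in air, 0.4 ppm and 0.8 ppm rats. Tdrd1, a tudor protein that organises piRNA production in germ granules, averaged 119 ± 31.9, 104 ± 57.9 and 115 ± 57.1 in air, 0.4 ppm and 0.8 ppm rats. Tdrd12, a further tudor protein of that pathway, averaged 63.8 ± 24.8 in air, 57.7 ± 28.5 at 0.4 ppm and 52.6 ± 29.3 at 0.8 ppm. Sycp2, a structural protein of the meiotic chromosome axis, averaged 73.3 ± 26.4 in air, 86.0 ± 43.3 at 0.4 ppm and 71.1 ± 19.6 at 0.8 ppm. In each of these 5 genes the 3 group means lay within less than 1 SD of each other, whichever group's SD is taken.

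Most of the other named genes belong to no single pathway. Among regulators of transcription and chromatin, Casz1, a zinc finger factor of heart development, averaged 172, Nfatc3, a calcium-responsive factor, 88.2, the homeobox factor Prox2 87.72, and Ezh1, a histone methyltransferase of the Polycomb repressive complex, 59.95. Among enzymes and regulators of RNA, the cyclophilins Ppil2 and Ppil1, both of the spliceosome, averaged 161.4 and 83.42, Rbm28, of ribosome assembly, 120.9, and Virma, a scaffold of the N6-methyladenosine writer, 57.7. Signalling genes included the Ras regulator Dab2ip at 99.78, the kinase Mapk9 (JNK2) at 241.7, the Rac regulator Arhgap25 at 339.3 and the ligand Bmp10 at 61.3. Membrane and matrix genes included the collagen receptor subunit Itga11 at 612.6, the collagen chain Col5a1 at 153.2, the calcium channel subunit Cacng5 at 92.44 and the nucleoside transporter Slc29a3 at 52.8. Ubl3, a membrane-anchored ubiquitin-like protein that sorts proteins into small extracellular vesicles, averaged 549.6.

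The 81 rows are 13.1% of the rows of the table, and the families listed by symbol pattern were counted beside that share, with no test. Olfactory and vomeronasal receptors had 18 rows in the table and none here, protocadherins and cadherins 8 and none, cytoskeleton and flagellum genes 11 and none, and histone and chromatin genes 4 and none under the symbol patterns used. Olr1568, Pcdhga7, Pcdh7 and Synpo2, which the rule left out, belong to these families. Zinc finger genes named by those patterns had 13 rows in the table and 3 here, all of Zbtb18. By these patterns, solute carriers and ion channels had 11 and 2, GTPase and kinase genes 8 and 2, and RNA-binding factors 3 and 1. The kinases Mapk9 and Srpk1 and the GTPase Gimap7, all among the 81 rows, fall outside the patterns and are not counted. The same holds for the zinc finger genes Casz1 and Zbed4 and for the histone methyltransferase Ezh1. Srsf4, which the rule left out, fits the RNA-binding pattern. No ribosomal or translation factor gene had a row in the table.

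Several genes were split over transcripts, and the way the signal was split differed from gene to gene. Of the 68 genes, 7 have more than 1 of the 81 rows, 20 rows between them. The 4 rows of ENSRNOG00000061304 held 36.4%, 23.8%, 21.9% and 17.9% of that gene's signal with SDs over rats of 0.0377, 0.0429, 0.0308 and 0.025 percentage points. These 4 rows are thus 1 measurement, and a count over rows holds it 4 times. The Gfpt2 rows held 89.5% ± 0.341 and 10.5% ± 0.341, and the Nat8 rows 59.6% ± 2.5, 22.5% ± 1.39 and 18.0% ± 1.11 (SD, n = 23). Nat8 encodes an acetyltransferase of cysteine conjugates. The antiviral gene Samd9 has 3 transcripts at 39.2%, 31.1% and 29.7%, of which 1 reached the mean of 50. The Srpk1 rows, by contrast, were not in fixed proportion. The leading row held between 37.5% and 64.2% of the gene's signal, and the Pearson r of log2(value + 1) with the other Srpk1 rows was 0.29 and 0.55 over 23 rats. For Zbtb18 the row averaging 187 followed the leading row (r = 0.909) and the row averaging 163.5 did not (r = 0.104).

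In Zbed4 and Ppil2 the leading row was almost gone in 1 rat each. Zbed4, which encodes a BED-type zinc finger protein, has 3 of the 81 rows. In 0.4 ppm rat 1 these rows stood at 1.83, 0.397 and 0.171. In the other 22 rats the leading Zbed4 row ran from 500 to 817 in air, up to 745 at 0.4 ppm, and from 278 to 975 at 0.8 ppm. All Zbed4 transcripts were low together in that rat. Ppil2 behaved otherwise. Its leading row stood at 0.00236 in 0.4 ppm rat 8, while the other Ppil2 transcript, which averaged 46.44 and lies outside the 81, stood at 340 there. Across rats the leading row took from 0.000692% to 99.3% of the Ppil2 signal, and the r between both rows was -0.55. Both the lowest share and this r include 0.4 ppm rat 8, and the r was not computed without that rat.

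**Figure D2:**
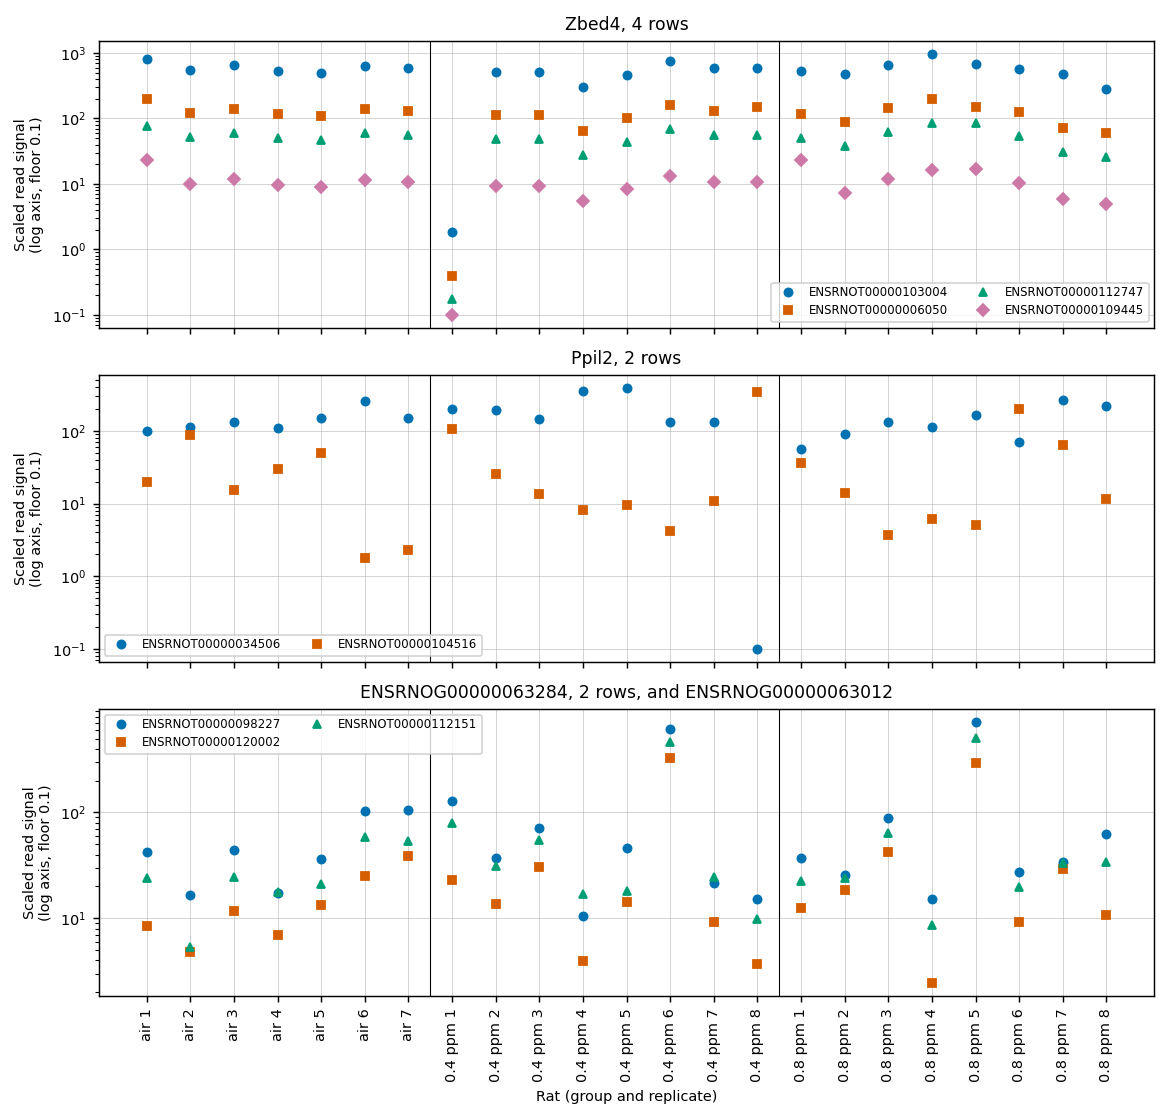
Scaled read signal (log axis, floor of 0.1) in each rat for the 4 transcripts of Zbed4, both transcripts of Ppil2, and the transcripts of ENSRNOG00000063284 with ENSRNOG00000063012. Every Zbed4 transcript is near the floor in 0.4 ppm rat 1, the leading Ppil2 transcript is at the floor in 0.4 ppm rat 8, and the last 2 genes peak in 0.4 ppm rat 6 and 0.8 ppm rat 5.

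Both rats with the smallest mitochondrial share also stood apart within the 81 rows. ENSRNOG00000063284 reached 620.1 in 0.4 ppm rat 6 and 717.0 in 0.8 ppm rat 5, against 10.38 to 127.5 (median 36.91) in the other 21 rats. ENSRNOG00000063012 reached 468.5 and 509.8 in those rats, against 5.398 to 80.15 (median 24.01). Without both rats these genes would average 46.8 and 30.78, below the mean of 50 that chose them. Ppp1r12b, a regulatory subunit of myosin phosphatase, went the other way, with 18.92 and 10.12 in the same rats against 28.65 to 151.3 in the others. The 0.8 ppm rat 5 had the lowest signal of all rats for 19 of the 81 rows. Extremes also gathered in 0.4 ppm rat 5, the lowest for 15 rows and the highest for 12, in 0.8 ppm rat 4, the highest for 16, and in 0.8 ppm rat 7, the lowest for 10. Air rats 3, 5 and 7 were neither highest nor lowest for any row. The 0.8 ppm rat 5 also had 57.2% of its signal in the 9 left-out nuclear rows, against a median of 20.3% over all rats. The 0.4 ppm rat 6 had the fewest reads in the table, 83119. The part played by the mitochondrial share, the left-out rows or depth in these values was not tested.

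The spread between rats was larger than counting error. The coefficient of variation over 23 rats had a median of 37.9%, against 8.78% for counting error alone at the reads recovered, and it was at least 3 times the counting error for 69 of the 81 rows. One row was under 2 times that error. The SD of log2(value + 1) ran from 0.23 to 1.66 with a median of 0.56. It was smallest for ENSRNOG00000067118, which averaged 59.6 ± 6.95 in air, 57.2 ± 9.58 at 0.4 ppm and 60.5 ± 14.0 at 0.8 ppm (SD, n = 7, 8 and 8), and was also small for ENSRNOG00000069312 at 0.25 and for 2 Srpk1 rows. It was largest for Ppil2, ENSRNOG00000002379, Zbed4 and ENSRNOG00000063284. ENSRNOG00000002379 ran from 4.13 to 290 in air, from 11.9 to 252 at 0.4 ppm and from 4.43 to 142 at 0.8 ppm. The highest value was lower at 0.8 ppm than at 0.4 ppm or in air, and the groups overlapped.

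**Figure D3:**
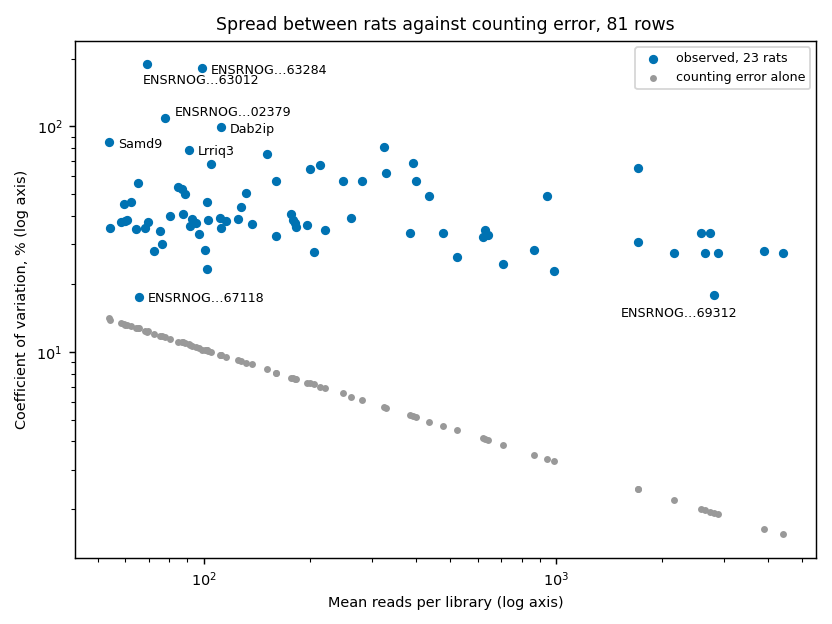
Coefficient of variation over 23 rats (log axis) against mean reads per library (log axis) for the 81 rows in blue, and the value that counting error alone would give in grey. The blue points have a median of 37.9% and lie above the grey ones, whose median is 8.78%.

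Many rows varied together from rat to rat. Over the 3240 pairs of rows the median Pearson r of log2(value + 1) was -0.01, yet 62 pairs reached 0.9 or more, 14 of them within a gene and 48 between different genes. Joining rows through such pairs put 38 of the 81 in 9 sets and left 43 in none. These values share the scaling of each library and the 23 rats, and they are given as a description.

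The broadest set held 10 genes. Blm, Tdrd1, Ubl3, Arhgap25, Bmp10, Cidea, Lhfpl5 and the unnamed ENSRNOG00000068097, ENSRNOG00000062374 and ENSRNOG00000062272 moved together with a median r of 0.91 and a lowest r of 0.81. Cidea is a lipid droplet protein and Lhfpl5 a part of the hair-cell mechanotransduction channel. Blm, for example, was lowest at 217.1 in 0.4 ppm rat 5 and reached 743.4 in 0.4 ppm rat 6, and Tdrd1 had its lowest signal, 30.2, and its highest, 227.3, in those same rats. Bmp10 and Arhgap25 are neighbours on chromosome 4 in RefSeq and had an r of 0.93. Other neighbouring genes had lower values: Gfpt2 and Mapk9 on chromosome 10 had r of 0.41 and 0.42, and Lhfpl5 and the Srpk1 rows on chromosome 20 r of 0.48 to 0.78.

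The second set joined Trim17, Gimap7, both larger Zbtb18 rows, ENSRNOG00000065796 and Prox2. Gimap7 and the leading Zbtb18 row had an r of 0.9936, and their ratio varied over rats with a coefficient of variation of 3.75%. Counting error alone was 1.95% for the Gimap7 row and 2.01% for the Zbtb18 row. The genes lie on different chromosomes. Rows at so high an r may hold some of the same reads and need not be separate measurements, which was not tested. Among all rows of the table, the 2 most like Trim17 were the same Zbtb18 row (r = 0.947) and Gimap7 (r = 0.9394). The third set joined Casz1, Dcaf17, Ppil1 and the 3 Nat8 rows, with a median r of 0.92. Smaller sets paired Gfpt2 with ENSRNOG00000070502 (median r 0.91), Ankrd34b with Samd9 (r = 0.9037), Dab2ip with Lrriq3 (r = 0.9277) and ENSRNOG00000063284 with ENSRNOG00000063012 (r = 0.951). The first and second sets ran against each other, with a median r of -0.63 and a range of -0.73 to -0.48 over the 60 pairs of their rows. The mean log2 value of the first set had an r of -0.08 with log2 reads in the table and -0.28 with the mitochondrial share, that of the second set 0.21 and 0.34, and that of the third set 0.42 and 0.65 (n = 23 rats). With the share of signal in the left-out nuclear rows, the r was 0.03 for the first set, -0.2 for the second and -0.45 for the third. Whether depth or either share sets these patterns was not tested. The sequencing run of each library is not given in the labels, so its part could not be examined.

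**Figure D4:**
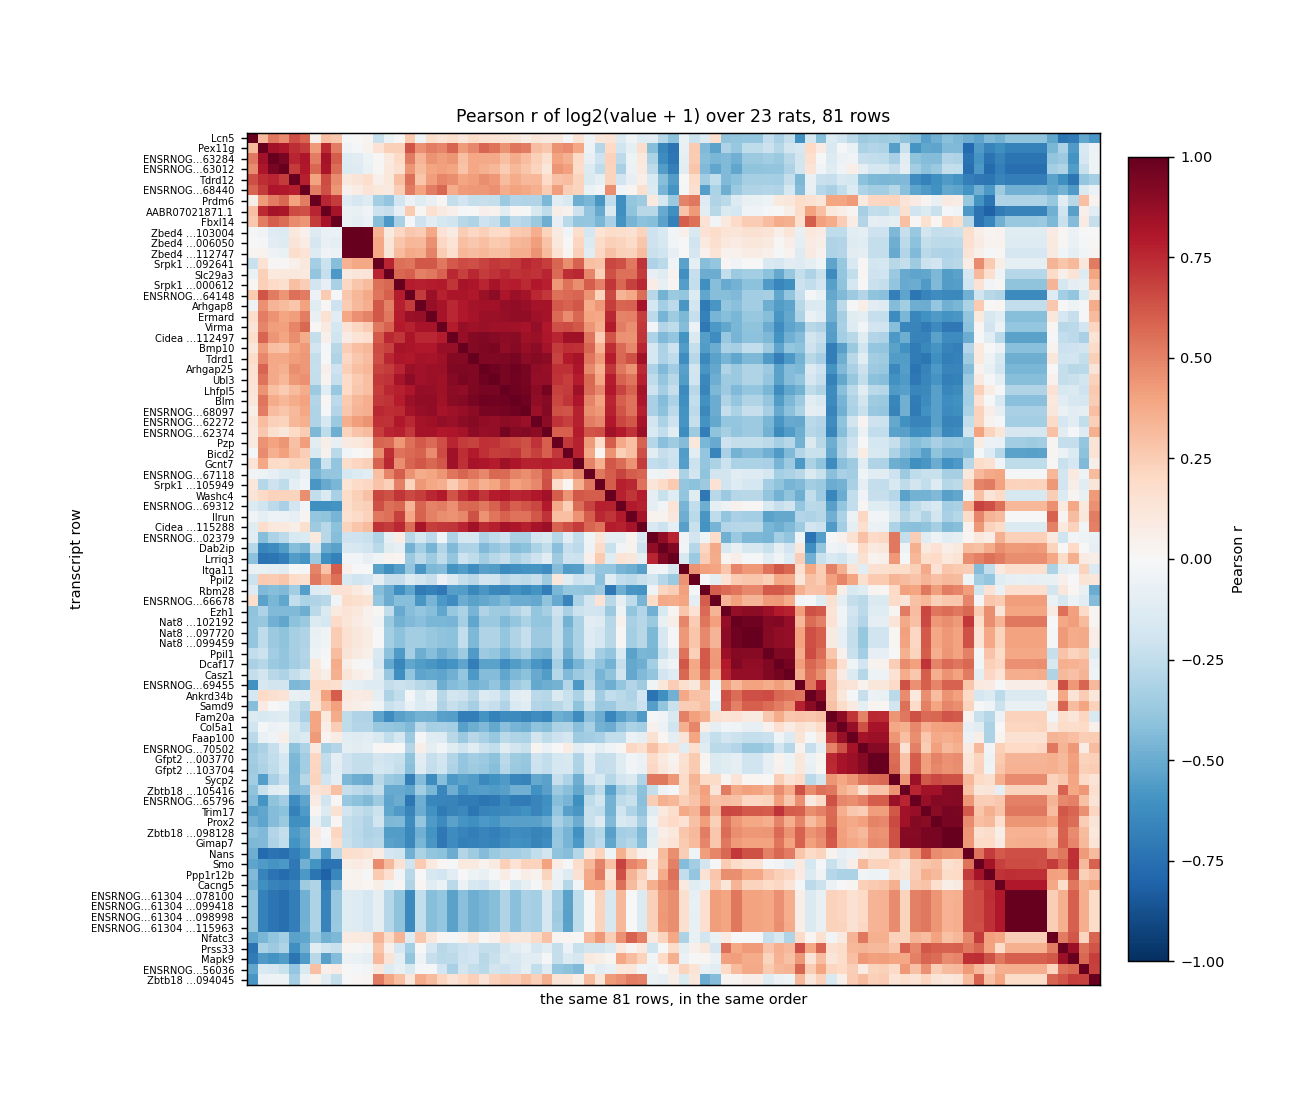
Pearson r of log2(value + 1) over 23 rats for every pair of the 81 rows, ordered by similarity, from blue at -1 to red at 1. The large red block holds Blm, Tdrd1, Ubl3 and the other genes of the set of 10, and it crosses in blue with the block of Trim17, Gimap7 and Zbtb18.

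The windows before the annotated starts of the 3 leading genes of the second set are shown so that their letters can be compared. They are the 250 bases before each start in RefSeq (GRCr8), given 5′ to 3′, and the set of windows used here names 39 of the 68 genes. Capitals mark the GC box GGGCGG on either strand, where overlapping matches run together.
Gimap7, chr4:79001166-79001415 (GRCr8, + strand): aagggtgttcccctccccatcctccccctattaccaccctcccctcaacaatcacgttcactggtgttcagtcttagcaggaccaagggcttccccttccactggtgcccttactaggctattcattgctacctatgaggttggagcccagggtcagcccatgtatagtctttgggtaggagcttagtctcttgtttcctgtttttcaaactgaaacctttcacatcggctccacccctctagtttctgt
Zbtb18, chr13:91971352-91971601 (GRCr8, + strand): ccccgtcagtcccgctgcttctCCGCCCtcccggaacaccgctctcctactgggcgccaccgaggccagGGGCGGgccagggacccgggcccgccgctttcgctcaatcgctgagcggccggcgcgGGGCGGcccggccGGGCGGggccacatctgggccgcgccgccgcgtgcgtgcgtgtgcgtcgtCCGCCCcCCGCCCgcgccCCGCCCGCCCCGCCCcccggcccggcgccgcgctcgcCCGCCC
Trim17, chr10:44242438-44242687 (GRCr8, + strand): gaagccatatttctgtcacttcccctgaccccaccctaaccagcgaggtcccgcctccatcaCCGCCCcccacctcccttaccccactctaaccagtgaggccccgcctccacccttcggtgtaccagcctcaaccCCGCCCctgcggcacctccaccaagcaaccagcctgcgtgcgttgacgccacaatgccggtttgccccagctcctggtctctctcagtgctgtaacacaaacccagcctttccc
The Zbtb18 window, the first of 2 entries, is 83.6% G or C and holds 10 matches to the GC box. The Trim17 window is 63.2% G or C with 2 matches, and the Gimap7 window is 51.2% G or C with none. None of the 3 windows holds the box CCAAT on either strand, and none holds the TATA box, spelled TATAAA, or the core of the MYB motif, spelled AACNGTT. Over 33465 windows of the same length, 30.5% hold the GC box, 34.0% the CCAAT box, 12.9% the TATA box and 3.94% the MYB core. The letters searched are thus not shared by the 3 genes whose signals moved together; a match or its lack says nothing here about a factor.

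Reads of one small RNA can match several annotations, so the 81 rows were also set beside the deposited tables of other RNA classes. Across 425 miRNA rows, 273 tRNA rows and 30676 piRNA rows, none followed one of the 81 at an r of 0.98 or more over the 23 rats. The closest were miR-19a-3p with Smo (r = 0.899), tRNA-iMet-CAT-1-2 with Smo (r = 0.903) and piR-rno-1977155 with Zbed4 (r = 0.968). These are the best of many pairs and are given as a description.

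Ozone at 0.4 ppm moved none of the 81 rows past the adjusted threshold. By limma on log2(value + 1), with Benjamini-Hochberg adjustment over all 617 rows, 0 of 81 rows were called against air, as were 0% of all rows. At an unadjusted p under 0.05 there were 2 of 81, 1 higher and 1 lower, against 3.08% of all rows, a share near the background. Limma-voom on the recovered reads gave 1 of 81 at that level and an exact Wilcoxon rank-sum test gave 2, with 0 called by either. The log2 fold change was positive in 29 of 81 rows, against 48% of all rows, and its median was -0.08 in the 81 rows and -0.01 in all rows. With equal totals over nuclear rows 19 were positive and the median was -0.35, alongside all rows at -0.30. Rows of a set or a gene move together, so these counts hold fewer independent values than rows.

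The 3 rows with the smallest unadjusted p at 0.4 ppm against air were of Gcnt7, Samd9 and Ankrd34b, each with overlapping groups. The 3 Zbed4 rows, which share the 1 rat near 0, had log2 fold changes of -1.17, -1.02 and -0.91 (limma adjusted p = 0.971 for each). Gcnt7, of the glucosaminyltransferase family that branches sugar chains, ran from 18.1 through a median of 62.3 to 93.7 at 0.4 ppm, against 64.8, 85.4 and 213 in air. Its lowest value came from 0.4 ppm rat 5, and 3 of the 8 ozone rats lay within the air range. Its means were 64.01 at 0.4 ppm and 110.1 in air, a log2 fold change of -0.78 ± 0.32 (SE; 95% interval -1.44 to -0.12; limma adjusted p = 0.971). Samd9 ran from 20.2 through 39.1 to 184 at 0.4 ppm, against 18.4, 19.7 and 60.3 in air, and 3 of the 8 ozone rats lay above all air rats. Its log2 fold change was 0.97 ± 0.46 (SE; 95% interval 0.03 to 1.92; limma adjusted p = 0.971). Ankrd34b, an ankyrin repeat protein, ran from 102 through 250 to 591 at 0.4 ppm, against 103, 140 and 230 in air, with 4 of the 8 above all air rats. Its log2 fold change was 0.68 ± 0.36 (SE; 95% interval -0.07 to 1.43; limma adjusted p = 0.971). Samd9 and Ankrd34b are the pair that varied together over rats, so they are not separate observations.

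At 0.8 ppm, again, 0 of 81 rows were called against air and 0% of all rows. At an unadjusted p under 0.05 there were 0 of 81 by limma, by limma-voom and by the exact Wilcoxon test, against 1.94% of all rows by limma. The log2 fold change was positive in 43 of 81 rows, against 47.2% of all rows, with a median of 0.01 in the 81 rows and -0.03 in all rows. Scaling to equal totals over all rows left 27 positive and turned the median to -0.17, alongside all rows at -0.21. Ankrd34b ran from 113 through 301 to 374 at 0.8 ppm, and 5 of the 8 rats lay above the air maximum of 230. Its log2 fold change was 0.67 ± 0.36 (SE; 95% interval -0.07 to 1.42; limma adjusted p = 0.997). Samd9 ran from 17.2 through 50.9 to 138 at 0.8 ppm and had a log2 fold change of 0.76 ± 0.46 (SE; limma adjusted p = 0.997). Here too the choice of rows favoured a higher ozone signal, as Samd9 averaged 28.6 in air. ENSRNOG00000066678 averaged 350.1 at 0.8 ppm and 469 in air, a log2 fold change of -0.57 ± 0.36 (SE; limma adjusted p = 0.997). Both ozone contrasts use the same 7 air rats, so the like values of Ankrd34b and Samd9 at 0.4 and 0.8 ppm are not independent.

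Between the doses, 0 of 81 rows were called at 0.8 ppm against 0.4 ppm, and 0% of all rows. None of the 81 had an unadjusted p under 0.05 by limma, by limma-voom or by the exact Wilcoxon test, against 2.27% of all rows by limma. The log2 fold change was positive in 52 of 81 rows, against 47.3% of all rows, with a median of 0.07 in the 81 rows and -0.01 in all rows. With equal totals over all rows 30 were positive and the median was -0.04; with equal totals over nuclear rows 63 were positive and it was 0.19. Ilrun, a regulator of inflammation and lipids, averaged 119.9 at 0.8 ppm and 84.29 at 0.4 ppm, a log2 fold change of 0.45 ± 0.27 (SE; limma adjusted p = 0.997). Gcnt7 averaged 89.16 at 0.8 ppm and 64.01 at 0.4 ppm (log2 fold change 0.52 ± 0.31, SE; limma adjusted p = 0.997). The Zbtb18 row that does not follow its leading row averaged 203.5 at 0.8 ppm and 144.6 at 0.4 ppm (log2 fold change 0.46 ± 0.29, SE; limma adjusted p = 0.997).

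**Figure D5:**
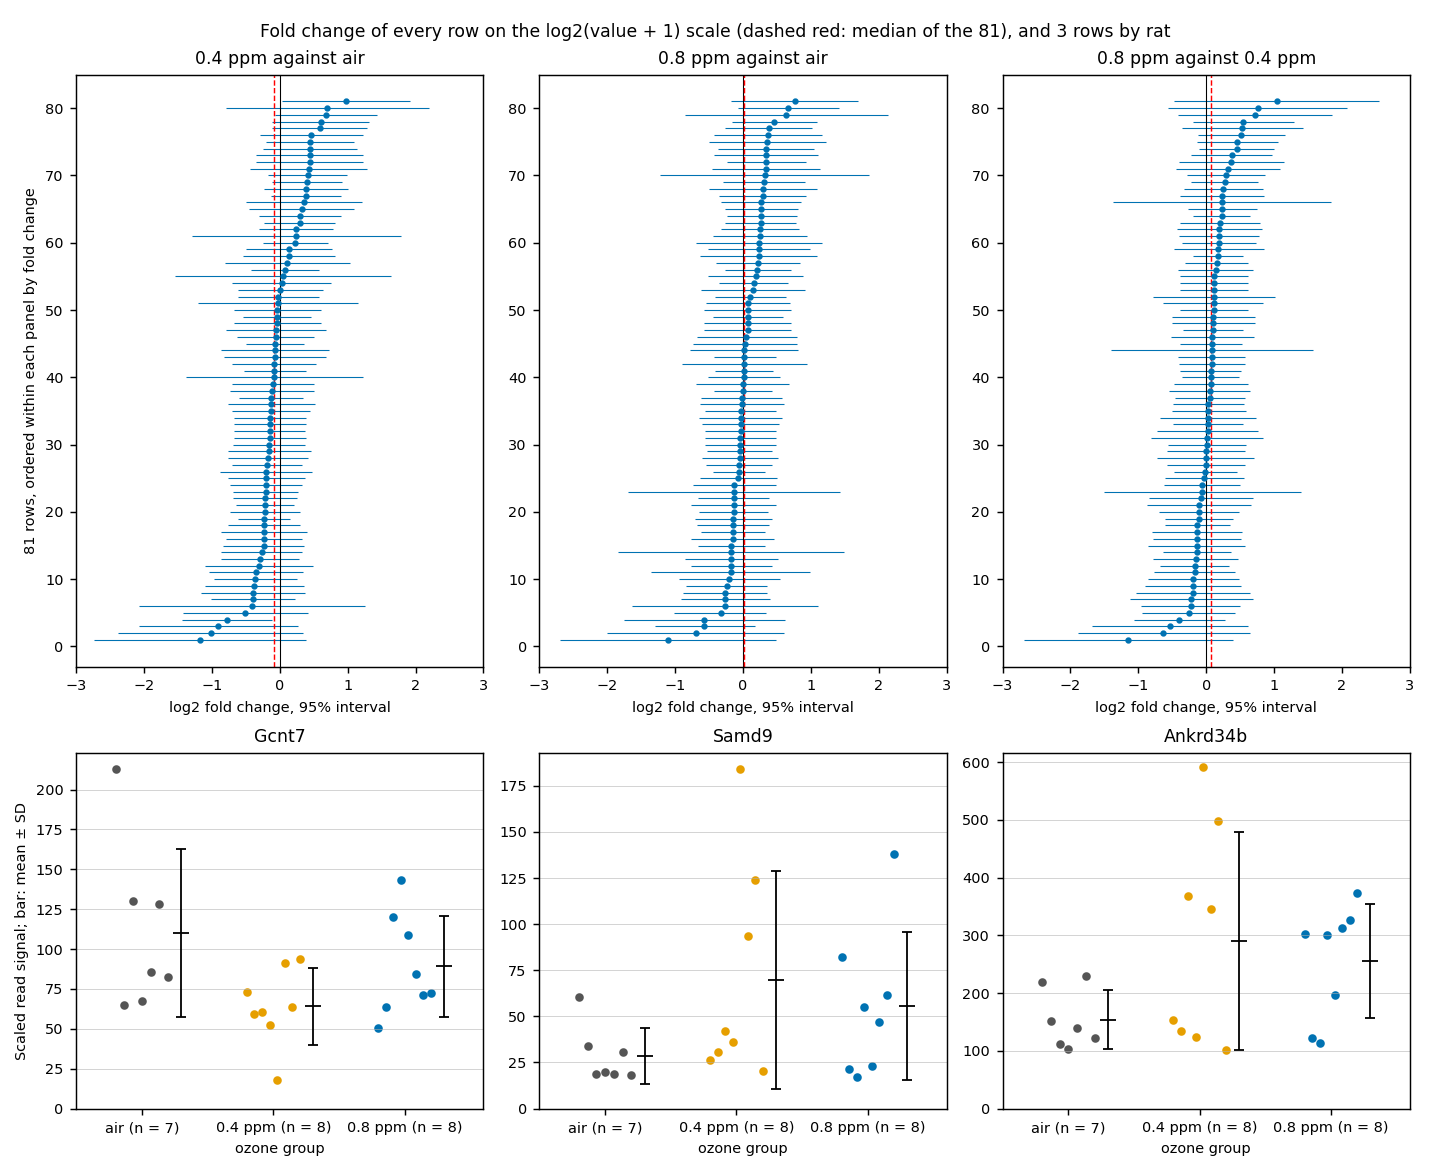
Upper panels show the log2 fold change on the log2(value + 1) scale with its 95% interval for each of the 81 rows, ordered within each contrast, with the median of the 81 as a dashed red line; lower panels show the scaled read signal of Gcnt7, Samd9 and Ankrd34b in each rat with mean ± SD for air (n = 7), 0.4 ppm (n = 8) and 0.8 ppm (n = 8). The medians lie at -0.08, 0.01 and 0.07, and the groups overlap in each lower panel.

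The precision of each fold change is given by its 95% interval. The median half-width of these intervals over the 81 rows was 0.62 for each ozone dose against air and 0.60 between the doses, on the log2 scale. The steadiest abundant row, ENSRNOG00000069312, had a log2 fold change of -0.23 (95% interval -0.61 to 0.15) at 0.4 ppm and -0.06 (-0.44 to 0.33) at 0.8 ppm against air. Trim17 had 0.23 (-0.25 to 0.71) at 0.4 ppm and 0.21 (-0.27 to 0.70) at 0.8 ppm. The leading ENSRNOG00000061304 row had -0.15 (-0.68 to 0.37) at 0.4 ppm and -0.04 (-0.56 to 0.49) at 0.8 ppm. Among the germ-cell genes, Tdrd1 had -0.35 (-1.04 to 0.34) at 0.4 ppm and -0.17 (-0.86 to 0.52) at 0.8 ppm. Blm, of the same co-varying set, had -0.20 (-0.73 to 0.33) at 0.4 ppm and -0.15 (-0.68 to 0.39) at 0.8 ppm. Tdrd12 had -0.20 (-0.88 to 0.47) and -0.33 (-1.01 to 0.34) at 0.4 and 0.8 ppm. Dcaf17 had -0.11 (-0.73 to 0.50) and 0.08 (-0.54 to 0.69) at these doses, and Sycp2 0.13 (-0.55 to 0.82) and 0 (-0.69 to 0.68). For Lcn5, the epididymal gene, the values were -0.10 (-0.70 to 0.50) at 0.4 ppm and -0.13 (-0.73 to 0.48) at 0.8 ppm. The leading Zbed4 row, near 0 in 0.4 ppm rat 1, had -1.17 (-2.74 to 0.39) at 0.4 ppm and -0.13 (-1.70 to 1.43) at 0.8 ppm.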

How the data were processed

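Small RNA shorter than 200 nt from cauda sperm of 23 rats was sequenced as single reads of 75 cycles, per the labels' protocols. The labels name no sequencing run or batch, so none entered the fits. Partek, Bowtie 1.0.0 and the build rn6 appear in the submitters' processing notes; alignment settings, the sharing of reads between transcripts and the scaling are not given in the sources used here. Deposited by the authors was a scaled read signal per transcript, already normalized. The worth of 1 read in each library was recovered from recurring low values; 46.8% to 53.8% of the values between 0.5 and 50 reads were whole within 0.02 read, and because the rest were not whole, no count test was used as the main one.

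All 617 rows entered 1 limma 3.58.1 fit (R 4.3.3) of log2(value + 1) over all 3 groups, with trended and robust moderation, two-sided, adjusted by Benjamini-Hochberg over all rows at 0.05; low rows' fold changes are understated on this scale. The fit and the recovery of reads were tested on simulated data. Most rows were named by rule: the 12 highest means, the 3 smallest p-values of each contrast, the 4 largest and 4 smallest SDs, list members, rows beside the mean of 50, and co-varying sets. Some genes described by their function, such as Itga11, Col5a1, Nfatc3, Ezh1, Virma and Ppp1r12b, were picked outside this rule. The members and lists were chosen with earlier results of these data known. Gene names and neighbours came from RefSeq GRCr8, another build than that of the reads. The alternatives were other pseudocounts, filters, scalings, moderation, library weights, tests, thresholds and totals, and leaving out each rat; limma-voom, summed transcripts and leaving out 2 rats together were added after the data were seen. Counting error covers sampling of reads only. Python 3.11.15 was used.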

Additional observations from a re-analysis of the deposited data

Results flagged for a closer look

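Checked for a single rat standing apart were 105 groups of values, of which 13 were marked. The rule was a gap to the neighbouring value that is large for the group's whole range, by Dixon's critical values at 95%. Chance marks about 1 in 20 groups only if values are normally distributed. That was not tested for these unlogged signals, and rows of 1 gene or set are not independent, so 13 cannot be judged against it. Every marked row signal was the highest of its group. At 0.4 ppm the near-absent leading rows of Zbed4 (1.83, next 300, highest 745) and Ppil2 (0.00236, next 135, highest 393) were not marked. Their gaps were too small for those ranges. At 0.8 ppm, rat 5 had 717 for ENSRNOG00000063284, with 87.9 as the next value, and rat 5 also held the smallest mitochondrial share, 15.6% of the table, with 49.6% as the next. At 0.4 ppm, rat 6 had 620 for ENSRNOG00000063284, with 128 as the next value. The hexosamine enzyme Gfpt2 reached 5702 in 0.4 ppm rat 4, with 2646 as the next value. In 0.8 ppm rat 7, Rbm28 reached 319, with 144 next, and in 0.8 ppm rat 4 Slc29a3 reached 99.0, with 61.5 next, and ENSRNOG00000067118 reached 92.5, with 61.6 next. ENSRNOG00000002379 stood apart at 142 in 0.8 ppm rat 2, with 52.7 next, and at 290 in air rat 4, with 105 next.

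Among air rats, Gimap7 reached 2919 in rat 5, with 2222 next, and Ppil2 reached 261 in rat 6, with 152 next. Ilrun reached 157 in air rat 2, with 105 next. Samd9 reached 60.3 in air rat 1, with 33.7 next. The causes of these values were not tested.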

How the results depend on the processing

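No alternative called any of the 81 rows in any contrast. The 9 named fold changes kept their sign in 315 of 315 comparisons and passed the adjusted threshold in none. Counts were equal or within 1.5 times in 226 of 229 comparisons, most of them 0 called rows on both sides. Medians stayed within the spread between rats in 105 of 108. The alternative without a filter on low values is the main fit itself, which has no such filter, so it could not differ. Equal totals over all rows moved the median of the 81 at 0.8 ppm against air to -0.17; equal totals over nuclear rows moved it to -0.35 at 0.4 ppm and -0.14 at 0.8 ppm. The medians of all 617 rows moved alongside, to -0.21, -0.30 and -0.18, and the 81 less all rows stayed at 0.04, -0.05 and 0.04. By quantile normalization the medians against air were -0.14 at 0.4 ppm and -0.08 at 0.8 ppm, with all rows at -0.01, so the 81 less all rows came to -0.13 and -0.07; under the deposited scaling these were -0.06 and 0.04. Leaving out 1 rat each, the medians ran from -0.13 to -0.05 at 0.4 ppm against air, -0.04 to 0.08 at 0.8 ppm against air and 0.03 to 0.11 between doses. Over all rows, 0 to 1 were called between the doses; the 1, without 0.4 ppm rat 3, was ENSRNOG00000063848, outside the 81 (log2 fold change 1.43, limma adjusted p = 0.00945). The number of rows was 151 at a mean of 20 and 48 at a mean of 100. Of nuclear rows alone, the 81 held 54.4% in air, 47.26% at 0.4 ppm and 53.45% at 0.8 ppm; without the 8 excluded genes as well they held 87.86%, 87.44% and 88.1%. The cause of these changes was not tested. No paired analysis was possible because the rats are separate animals and the replicate numbers are names given in accession order. Each row averaged at least 53.8 reads, and counting error had a median of 8.78% against a spread between rats of 37.9%.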
